A study of Rattus norvegicus with 7 samples.

Results

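Gene expression in cultured spinal cord cells after 48 and 72 hours of cyclic tensile stress was compared with that after 12 and 24 hours. The comparison used 4 of the 7 arrays of a time course, the other 3 of which were taken at 0, 2 and 6 hours. The cells were prepared from embryonic cord (Sprague-Dawley rats, E15), freed of meninges and of dorsal root ganglia, and grown on plates whose flexible bottom is stretched by a vacuum. At each time the total RNA of 5 animals was pooled and read by 1 Affymetrix array, on which a probe set, a group of short probes against 1 transcript, gives 1 signal in arbitrary units. The group named 48 and 72 hours and the group named 12 and 24 hours therefore hold 2 arrays each, both groups were under stress, and the members of a group are different times and not replicates. Unstretched cells were read at 0 hours alone, and hours of stretch and age of the culture therefore cannot be told apart. The 57 control probe sets of the manufacturer were left out, as were probe sets whose mean signal over the 4 arrays was under 100. This left 17683 of 31042 probe sets, which name 10196 genes. The probe set just outside that limit was that of Apobec3, at a mean of 99.985, and the one just inside it, which names no gene, had a mean of 100.042.

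Embryonic spinal cord cultures hold postmitotic neurons together with cells that still divide, such as glia, fibroblasts and microglia, the resident macrophages of nervous tissue. Stretched or injured neural cells are known to release chemokines and prostaglandins, to switch on chaperones, and to signal through growth factor ligands and mitogen-activated protein kinases (MAPK). Genes of mitosis are switched on together late in the cell cycle, and their level in a bulk sample is known to follow the share of cells in that phase. In pooled RNA, fewer cells of a type and less RNA per cell of that type cannot be told apart.

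The arrays were alike in overall signal. Their trimmed means lay between 500.144 and 500.162, as the global scaling of the deposited values sets them, and 42.5% to 44.3% of probe sets read below 100. Over all tested probe sets, log2 signals correlated at r = 0.9856 between 12 and 24 hours and at r = 0.9808 between 48 and 72 hours, against 0.9434 to 0.9709 for the 4 pairs across the groups, given as a description over features that share their arrays. The ratio of the 3′ to the 5′ control probe set of beta-actin, a measure of how far the RNA or its copy is complete, was 1.95 and 2.2 at 12 and 24 hours against 2.54 and 2.62 at 48 and 72 hours, and the part of this rise in the differences reported here was not tested. The same ratio for Gapdh, the glycolytic enzyme often used as a loading control, was 1.1, 1.16, 1.17 and 1.16, and its 3′ signal was 18531, 20341, 17571 and 18184. Cultured spinal cord is the labelled source, and 32 of 39 neuron markers passed the filter on signal. Those that stayed under 100 were Nefh, Syt1, Syn2, Gad2, Chga and the motor neuron markers Chat and Isl1.

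Between 12 and 24 hours and 48 and 72 hours, 838 probe sets were upregulated and 760 were downregulated (limma on log2(signal + 32), Benjamini-Hochberg adjusted p of at most 0.05 over all 17683). These were 4.74% and 4.3% of the probe sets tested. With 1 probe set per gene, 422 genes (4.14%) rose and 522 genes (5.12%) fell. Both late arrays were above both earlier ones in 28.4% of the 10196 genes and below both in 31.6%, called or not. The median log2 difference was 0.81 among called probe sets that rose and -0.79 among those that fell, 229 rose by at least 1 and 213 fell by at least 1 on the log2 scale, and the smallest called difference was 0.38. Under a rule of size alone, with no test, which asked for a ratio of at least 2 and a difference of at least 200 in each of the 4 pairs of a late and an earlier array, 61 probe sets (0.345%) were higher and 54 (0.305%) were lower, and all of them were also called by limma. Of the called probe sets that rose, 604 (72.1%) were farther from the 12 and 24 hour mean at 72 hours than at 48 hours, and of those that fell, 620 (81.6%). A further 366 tested probe sets stand for called genes, of which 94.8% moved the same way and 34.7% were called themselves.

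The spread behind these tests is that between neighbouring times. With 2 arrays against 2, an exact permutation test cannot give a two-sided p under 0.333, and the calls rest on limma's sharing of the spread across probe sets, so they are counts for these 4 arrays. Leaving out 12 hours left 53 probe sets called higher and 48 lower, leaving out 24 hours 390 and 241, leaving out 48 hours 1472 and 1496, and leaving out 72 hours 446 and 426. With no filter on the mean signal 35 and 34 were called. A probe set dim in 1 group can pass the filter through the other group alone, where it then has to differ: in 98 of the 838 called higher (11.7%) and 58 of the 760 called lower (7.63%) the dimmer group had a mean signal under 100. Genes of this kind stay in the counts, and where they are named below their difference is given as a description, with no p. For gene groups with at least 5 calls in 1 direction, and for astrocyte markers, the count with each of the 4 arrays left out in turn is therefore given. Its order is 12, 24, 48 and 72 hours. Groups with under 5 calls in either direction are counted together after the last gene group, and their calls carry no such check 1 by 1. In these fits the single array left in a group is assumed to vary as the other group does. The shares of all genes to read these counts against are 4.14% called higher and 5.12% called lower. The gene lists were chosen with earlier results of these data known. A list's share set beside that of all genes is therefore a description and not an independent test.

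**Figure D1:**
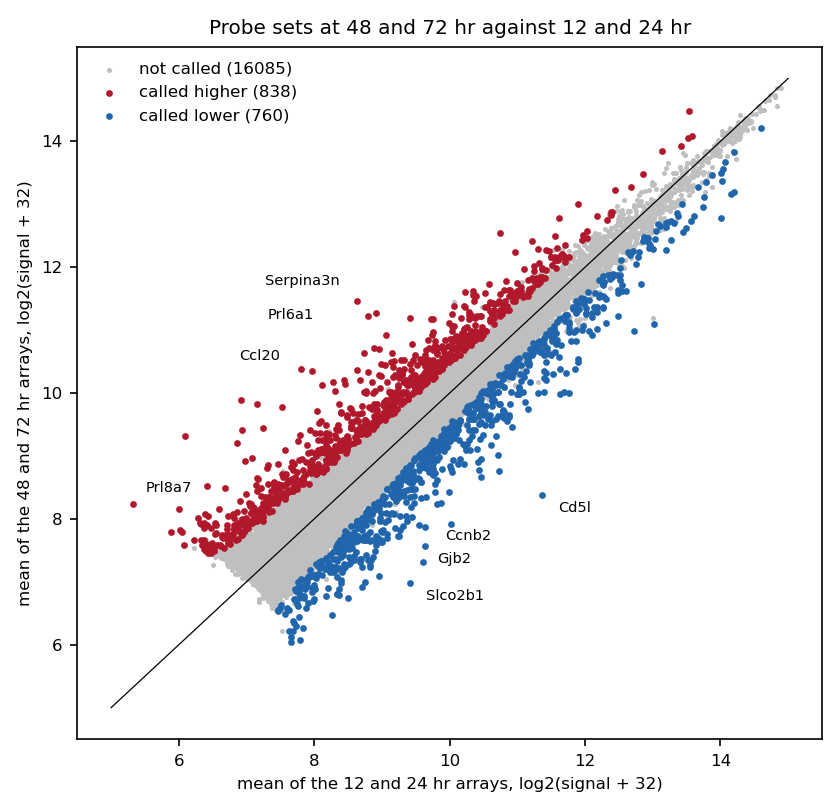
Each point is 1 of the 17683 probe sets tested, with the mean of log2(signal + 32) over the 12 and 24 hour arrays on the horizontal axis and the mean over the 48 and 72 hour arrays on the vertical axis; the line marks equal levels. The 838 probe sets called higher lie above the line, with Serpina3n, Prl6a1, Ccl20 and Prl8a7 far from it, and the 760 called lower lie below it, with Cd5l, Slco2b1, Gjb2 and Ccnb2 far from it.

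The 12 genes of the largest increase, taken among called genes whose groups did not overlap and whose brighter group had a mean signal of at least 200, included Serpina3n, Ptgs2, Ccl20 and Cxcl3 of the inflammatory lists below and 2 members of the prolactin family. Serpina3n, a secreted inhibitor of serine proteases that reactive astrocytes also make, had a signal of 276 and 475 at 12 and 24 hours against 1782 and 4357 at 48 and 72 hours (log2 difference 2.83 ± 0.37 SE, adjusted p = 0.00772). Ptgs2, the inducible cyclooxygenase that starts prostaglandin synthesis, read 339 and 503 at 12 and 24 hours against 1808 and 3116 at 48 and 72 hours (log2 difference 2.43 ± 0.26 SE, adjusted p = 0.00463). Ccl20, a chemokine that attracts lymphocytes and dendritic cells, read 205 and 181 at 12 and 24 hours against 842 and 2014 at 48 and 72 hours (log2 difference 2.58 ± 0.33 SE, adjusted p = 0.00707). In all 3 both late arrays were above every earlier array of the series, and 72 hours was above 48 hours. Prl8a7, a prolactin family hormone known from the placenta, read 4.82 and 11.8 at 12 and 24 hours against 154 and 449 at 48 and 72 hours (log2 difference 2.90, as a description), so that both earlier arrays were near the bottom of the scale. Its relative Prl6a1 read 491 and 409.5 at 12 and 24 hours against 2039.6 and 2896 at 48 and 72 hours (log2 difference 2.36 ± 0.18 SE, adjusted p = 0.00208). Vamp1, a vesicle protein of the release machinery of nerve terminals, read 223 and 212 at 12 and 24 hours against 916 and 1771 at 48 and 72 hours (log2 difference 2.39 ± 0.26 SE, adjusted p = 0.00561), and the other Vamp1 probe set tested was called higher too. The 2 groups of arrays did not overlap for these 6 genes, and Serpina3n, Ptgs2, Ccl20, Prl6a1 and Vamp1 were called with any 1 of the 4 arrays left out.

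The rest of the 12 included membrane transporters and a growth factor. Slc4a11, a transporter of the bicarbonate transporter family, read 187 and 121 at 12 and 24 hours against 809 and 885 at 48 and 72 hours (log2 difference 2.26 ± 0.20 SE, adjusted p = 0.00254). Paqr5, a membrane receptor for progestins, read 68.3 and 41.5 at 12 and 24 hours against 332 and 343 at 48 and 72 hours (log2 difference 2.11, as a description). Cdhr4, a cadherin-related protein, read 61.8 and 137 at 12 and 24 hours against 411 and 498 at 48 and 72 hours (log2 difference 1.94, as a description). In Slc4a11 and Paqr5 the late arrays were close to each other, and Slc4a11 was called with any 1 array left out. Ereg, a ligand of the epidermal growth factor receptor, read 79.6 and 88.5 at 12 and 24 hours against 275 and 1092 at 48 and 72 hours (log2 difference 2.34, as a description). Aqp8, a water channel, read 31.6 and 32.2 at 12 and 24 hours against 107 and 552 at 48 and 72 hours (log2 difference 2.15, as a description). Cxcl3, a chemokine for neutrophils, read 298 and 260.2 at 12 and 24 hours against 693 and 1799 at 48 and 72 hours (log2 difference 1.89 ± 0.35 SE, adjusted p = 0.0207), and both of its other probe sets tested were called higher. These last 3 reached most of their level at 72 hours: Cxcl3 lost its call without the 12 or the 24 hour array.

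The 12 genes of the largest decrease by the same rule included Clec4a1 of the list of microglia and macrophages and Ttk and Ccnb2 of the mitosis list. Cd5l, a secreted protein of macrophages, had a signal of 2469.8 and 2749 at 12 and 24 hours against 682 and 123 at 48 and 72 hours (log2 difference -2.99 ± 0.55 SE, adjusted p = 0.02). Slco2b1, an organic anion transporter, read 632 and 668 at 12 and 24 hours against 119 and 74.1 at 48 and 72 hours (log2 difference -2.43, as a description). Clec4a1, a lectin receptor of myeloid cells, read 973 and 1045 at 12 and 24 hours against 331 and 130.2 at 48 and 72 hours (log2 difference -2.10 ± 0.32 SE, adjusted p = 0.0113). In these 3 the 72 hour array was the lowest of the series. Il18bp, the secreted protein that binds and blocks the cytokine Il18, read 1772 and 1567 at 12 and 24 hours against 478 and 338 at 48 and 72 hours (log2 difference -1.97 ± 0.17 SE, adjusted p = 0.00254). Slamf9, a receptor of the SLAM family found on myeloid cells, read 3774 and 3169 at 12 and 24 hours against 1527 and 642 at 48 and 72 hours (log2 difference -1.77 ± 0.32 SE, adjusted p = 0.0191). Fcrl2, a receptor related to those for antibodies, read 1515 and 1770.2 at 12 and 24 hours against 812 and 288 at 48 and 72 hours (log2 difference -1.68 ± 0.36 SE, adjusted p = 0.0306). Slamf9 and Fcrl2 were also lower at 72 than at 48 hours.

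Gjb2, a connexin of gap junctions, read 839 and 686 at 12 and 24 hours against 201 and 124 at 48 and 72 hours (log2 difference -2.05 ± 0.22 SE, adjusted p = 0.00463), after 2400.3, 1937 and 859 at 0, 2 and 6 hours. Lrrc17, a secreted leucine-rich repeat protein, read 570.2 and 256 at 12 and 24 hours against 90.5 and 85.6 at 48 and 72 hours (log2 difference -1.80, as a description). Psca, a surface protein held by a lipid anchor, read 1227 and 1537 at 12 and 24 hours against 562 and 246 at 48 and 72 hours (log2 difference -1.79 ± 0.30 SE, adjusted p = 0.0159). Gjb2 and Lrrc17 were already lower at 12 hours than at 0 hours, while Psca had its highest signal of the series at 6 hours. Pdyn, the precursor of the dynorphin opioid peptides of dorsal horn neurons, read 312 and 506 at 12 and 24 hours against 114 and 80.4 at 48 and 72 hours (log2 difference -1.75, as a description). Ttk and Ccnb2 are described with the other genes of mitosis. Of those whose dimmer group was not under 100, Gjb2 and Il18bp were called with any 1 array left out. Clec4a1, Slamf9 and Ccnb2 lost their call without the 12 hour array, and Cd5l, Psca and Fcrl2 without either the 12 or the 24 hour array.

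**Figure D2:**
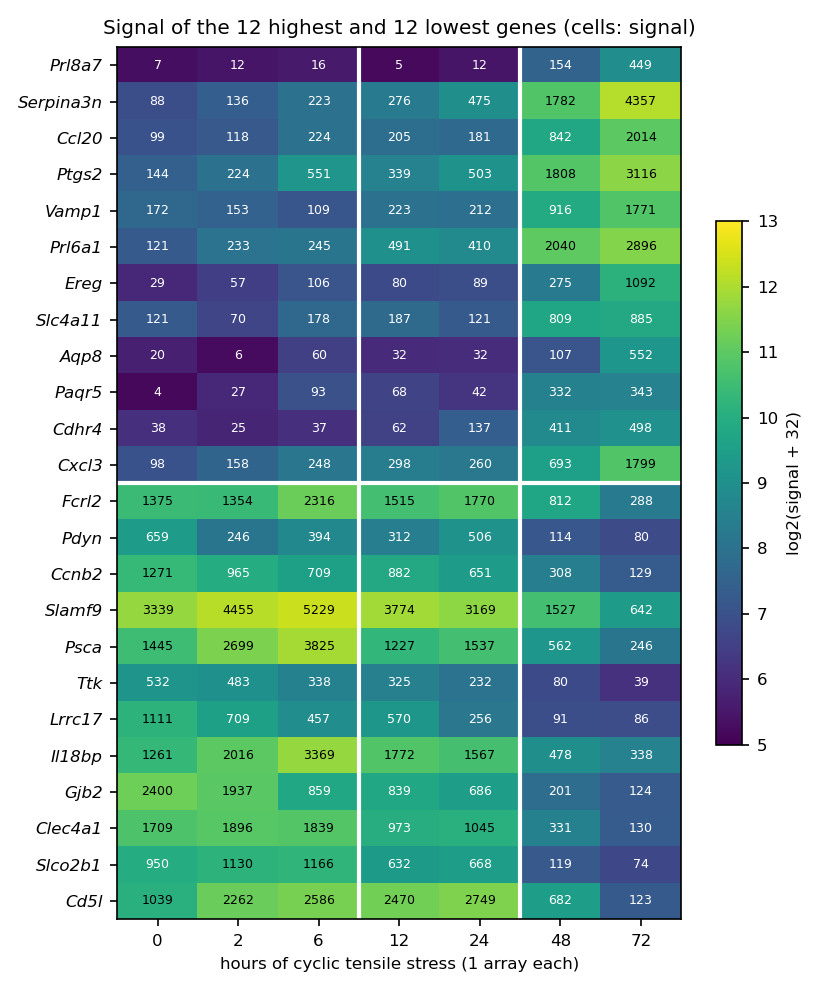
Each row is 1 of the 12 genes that rose most (upper block) or fell most (lower block) among called genes, each column 1 array by hours of stress, each cell the signal, and the colour log2(signal + 32); white lines separate the 0 to 6, 12 and 24, and 48 and 72 hour arrays. By the rule that chose the genes, both late arrays exceed both arrays at 12 and 24 hours in every row of the upper block, as from 205 and 181 to 842 and 2014 for Ccl20. By the same rule both are below them in every row of the lower block.

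Most of the genes of mitosis tested fell. Of 35 tested genes for the spindle, chromosome segregation and mitotic kinases, 25 (71.4%) were called lower and 0 higher, against 5.12% lower and 4.14% higher of all genes, and 2 of the 25, Ttk and Hmmr, were under 100 in the late group. The median log2 difference of the 35 was -1.17, where that of all genes was -0.018, all 35 differences were negative, and in 34 the groups did not overlap, against 31.6% of all genes. Leaving out each array in turn, 0, 22, 30 and 17 were called lower, so that without the 12 hour array none was. Relative to the 12 and 24 hour mean, the group's median was 0.63, 0.41 and 0.10 at 0, 2 and 6 hours, 0.20 and -0.20 at 12 and 24 hours, and -0.89 and -1.38 at 48 and 72 hours on the log2 scale. The median was thus lower at 24 than at 12 hours and lowest at 72 hours.

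Ttk, the kinase that delays division until chromosomes are attached, had a signal of 325 and 232 at 12 and 24 hours against 79.5 and 39.2 at 48 and 72 hours (log2 difference -1.79, as a description). Ccnb2, a cyclin that activates Cdk1 at the entry into mitosis, read 882 and 651 at 12 and 24 hours against 308 and 129 at 48 and 72 hours (log2 difference -1.76 ± 0.32 SE, adjusted p = 0.0191). Ccna2, the cyclin of S phase and early mitosis, read 586 and 304 at 12 and 24 hours against 143 and 98.4 at 48 and 72 hours (log2 difference -1.60 ± 0.29 SE, adjusted p = 0.0194). All 3 were higher at 0 hours than on any later array. Mki67, the nuclear protein used to stain dividing cells, read 1222 and 788 at 12 and 24 hours against 447 and 215 at 48 and 72 hours (log2 difference -1.56 ± 0.31 SE, adjusted p = 0.0232). Cdc20, an activator of the complex that ends mitosis by degrading cyclins, read 572 and 318 at 12 and 24 hours against 156 and 107 at 48 and 72 hours (log2 difference -1.51 ± 0.27 SE, adjusted p = 0.0195). Top2a, the topoisomerase that untangles chromosomes, read 558 and 459.7 at 12 and 24 hours against 240.1 and 139.6 at 48 and 72 hours (log2 difference -1.32 ± 0.23 SE, adjusted p = 0.0179). In these genes too the order of the 4 arrays ran from 12 hours, the highest, to 72 hours, the lowest. Plk1, a kinase of spindle assembly, read 432 and 331 at 12 and 24 hours against 154 and 111 at 48 and 72 hours (log2 difference -1.33 ± 0.21 SE, adjusted p = 0.0127), and Cdk1 itself moved less, at 864 and 766 at 12 and 24 hours against 562 and 544 at 48 and 72 hours (log2 difference -0.53 ± 0.13 SE, adjusted p = 0.0459). The 10 that did not pass the test included the kinases Aurkb (log2 difference -0.95 ± 0.26 SE, adjusted p = 0.0587) and Aurka (log2 difference -0.39 ± 0.20 SE, adjusted p = 0.239) and the transcription factor Foxm1 (log2 difference -0.49 ± 0.25 SE, adjusted p = 0.243), and Cenpe was the single member whose groups overlapped, at 193, 136, 133 and 136 in order of time.

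Because these genes moved together, the sequence before their start sites is shown for 4 of them. Promoters of late cell cycle genes are known to carry a CHR element, searched as TTTGAA, often next to CCAAT boxes, searched as CCAAT, and both were searched on both strands in the 250 bases before and 50 bases after the start from RefSeq (build GRCr8). In the sequences of Ttk, Ccnb2, Mki67 and Cdc20, written 5′ to 3′ in the direction of transcription, capitals mark these motifs or their reverse complements, and in Mki67 1 CHR match overlaps an inverted CCAAT match.
Ttk (chr8.0:93634389.0-93634688.0, plus strand): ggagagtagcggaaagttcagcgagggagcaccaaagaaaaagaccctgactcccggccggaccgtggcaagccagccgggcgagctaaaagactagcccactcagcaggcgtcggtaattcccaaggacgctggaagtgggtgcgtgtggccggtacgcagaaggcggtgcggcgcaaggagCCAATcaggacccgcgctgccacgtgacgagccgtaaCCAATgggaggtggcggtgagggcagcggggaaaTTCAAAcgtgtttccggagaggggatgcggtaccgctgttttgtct
Ccnb2 (chr8.0:79981609.0-79981908.0, minus strand): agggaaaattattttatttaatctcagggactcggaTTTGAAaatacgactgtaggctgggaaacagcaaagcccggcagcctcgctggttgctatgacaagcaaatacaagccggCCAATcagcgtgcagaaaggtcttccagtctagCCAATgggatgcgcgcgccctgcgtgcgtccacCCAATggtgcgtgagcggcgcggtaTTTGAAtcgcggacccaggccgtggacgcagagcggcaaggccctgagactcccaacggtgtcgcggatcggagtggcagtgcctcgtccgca
Mki67 (chr1.0:199952544.0-199952843.0, minus strand): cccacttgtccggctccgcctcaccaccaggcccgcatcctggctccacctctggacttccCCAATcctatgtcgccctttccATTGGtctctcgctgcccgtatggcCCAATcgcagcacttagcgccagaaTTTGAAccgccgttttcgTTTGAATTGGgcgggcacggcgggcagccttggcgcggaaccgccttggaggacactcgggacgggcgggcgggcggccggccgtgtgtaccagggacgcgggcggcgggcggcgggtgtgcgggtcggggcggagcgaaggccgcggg
Cdc20 (chr5.0:137255750.0-137256049.0, minus strand): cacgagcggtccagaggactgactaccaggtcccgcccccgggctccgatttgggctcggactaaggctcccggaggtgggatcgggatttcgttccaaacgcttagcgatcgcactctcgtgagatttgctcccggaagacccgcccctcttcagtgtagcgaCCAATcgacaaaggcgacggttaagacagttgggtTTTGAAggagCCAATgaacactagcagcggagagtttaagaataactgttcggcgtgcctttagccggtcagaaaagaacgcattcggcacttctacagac
Promoters were matched for 30 of the 35 tested genes, 22 of them called lower. The letters of the CHR stood in 20 of the 30 (66.7%), in 14 of the 22 called (63.6%) and in 6 of the 8 not called (75%), against 18.1% of all 27457 promoters and 12.3% of the 11700 promoters of genes named on the array. A CCAAT box stood in 18 of the 22 called genes (81.8%) and 5 of the 8 others (62.5%), against 37.7% and 37.3%. The box was not particular to this list. It stood in 81.2% of the promoters matched for cholesterol synthesis, a list without calls, and in 58.8% for heat shock. For DNA replication, chemokines and cytokines, and NRF2 targets the share was 58.1%, 35% and 28.6%. A match describes letters in the reference and is not a measurement of binding.

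Some genes of DNA replication fell too. Of 34 tested, 6 (17.6%) were called lower, against 5.12% of all genes, and 0 higher, the median was -0.44, and 33 differences were negative. Of the 6, Gins1 had a mean signal under 100 at 48 and 72 hours. With 1 array left out in that order, 0, 4, 12 and 2 were called lower. Tk1, the thymidine kinase of S phase, had a signal of 326 and 259.6 at 12 and 24 hours against 121 and 86 at 48 and 72 hours (log2 difference -1.27 ± 0.21 SE, adjusted p = 0.0159). Mcm5, a subunit of the helicase that opens DNA at origins, read 457 and 358 at 12 and 24 hours against 214 and 148 at 48 and 72 hours (log2 difference -1.05 ± 0.21 SE, adjusted p = 0.0241). Dut, which keeps uracil out of DNA, read 1064 and 1068 at 12 and 24 hours against 631 and 609 at 48 and 72 hours (log2 difference -0.75 ± 0.12 SE, adjusted p = 0.0142). In these genes the 48 and 72 hour arrays were the lowest of the series. Uhrf1, Mcm6 and Gins1 were the other 3 called, with log2 differences of -0.92, -0.87 and -0.84. A strict E2F site, searched as GCGCGAAA on both strands, stood in 9 of the 31 promoters matched for this group (29%). This compares with 0.342% of all promoters and 0.564% of those named on the array. The site stood in 2 of the 6 called genes (33.3%) and in 7 of the 25 not called (28%). The CHR stood in 2 of the 31 (6.45%). The promoter of Mcm5 is shown as an example, with the E2F match, on its opposite strand, and CCAAT boxes in capitals.
Mcm5 (chr19.0:13488563.0-13488862.0, plus strand): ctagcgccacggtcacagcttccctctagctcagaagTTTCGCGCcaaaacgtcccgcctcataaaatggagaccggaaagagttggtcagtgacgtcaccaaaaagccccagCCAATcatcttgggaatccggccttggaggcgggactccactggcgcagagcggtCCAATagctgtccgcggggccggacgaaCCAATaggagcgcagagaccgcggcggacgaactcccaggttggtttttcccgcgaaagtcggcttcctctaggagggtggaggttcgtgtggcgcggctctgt

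Among regulators of the step before replication, 2 D-type cyclins were called lower and 2 inhibitors higher, and the others tested were not called. Ccnd1, cyclin D1, which carries growth factor signals into the cell cycle, read 5966 and 6379 at 12 and 24 hours against 4206 and 2319.7 at 48 and 72 hours (log2 difference -0.97 ± 0.23 SE, adjusted p = 0.038), and both of its other probe sets were called lower. Ccnd2, another D-type cyclin, read 2848 and 2792 at 12 and 24 hours against 1956 and 2072 at 48 and 72 hours (log2 difference -0.48 ± 0.11 SE, adjusted p = 0.0321). Rb1, the retinoblastoma protein that holds back E2F factors, was called higher at 849.6 and 913 at 12 and 24 hours against 1248 and 1513 at 48 and 72 hours (log2 difference 0.62 ± 0.14 SE, adjusted p = 0.0306). Tob1, an inhibitor of proliferation, was called higher as well, at 1002 and 967 at 12 and 24 hours against 1334 and 1511 at 48 and 72 hours (log2 difference 0.51 ± 0.12 SE, adjusted p = 0.0387). Among the 18 tested genes of the list of cell cycle arrest, these were the 2 called higher and the 2 called lower (11.1% each), and the list's median was -0.07. The list joins D-type cyclins with inhibitors of the cycle, so its median gives no direction for arrest.

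Of 22 tested markers of microglia and macrophages, 8 (36.4%) were called lower, against 5.12% of all genes, and 0 higher. The median was -0.60, 20 differences were negative, and in 15 both late arrays were below both earlier ones, against 31.6% of all genes. The 14 that did not pass the test included Csf1r, Laptm5, Lyz2 and Apoe, with log2 differences of -0.20, 0.06, -0.10 and -0.03. With each array left out in turn, 5, 7, 16 and 8 were called lower. The summed signal of the 25 markers on the array was 157250, 161845, 134499 and 114807 at 12, 24, 48 and 72 hours, after values between 145294 and 195249 at 0 to 6 hours, so that both late arrays were the lowest of the series. The defining markers Cx3cr1, Cd163 and Cd74 had mean signals under 100.

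Aif1, the cytoskeletal protein used to stain microglia, had a signal of 3528 and 3049 at 12 and 24 hours against 1516 and 654 at 48 and 72 hours (log2 difference -1.68 ± 0.31 SE, adjusted p = 0.0199). Fcgr3a, an antibody receptor, read 3369 and 4184 at 12 and 24 hours against 1530.2 and 1384 at 48 and 72 hours (log2 difference -1.35 ± 0.13 SE, adjusted p = 0.0036). Mrc1, the mannose receptor, read 4159 and 4340.0 at 12 and 24 hours against 2148 and 1851 at 48 and 72 hours (log2 difference -1.08 ± 0.11 SE, adjusted p = 0.00463). Aif1 was lower again at 72 than at 48 hours, while the late arrays of the other 2 were close. The 3 chains of complement C1q, which microglia make, were already lower at 12 hours than at 6 hours and fell again. C1qa read 2147 and 2945 at 12 and 24 hours against 998 and 984 at 48 and 72 hours (log2 difference -1.32 ± 0.15 SE, adjusted p = 0.00623), after 5264, 5329.9 and 6318 at 0, 2 and 6 hours. C1qc and C1qb had log2 differences of -1.19 ± 0.16 SE and -0.94 ± 0.15 SE. The last of the 8, Clec4a3, read 3334 and 3332 at 12 and 24 hours against 1807 and 852 at 48 and 72 hours (log2 difference -1.40 ± 0.28 SE, adjusted p = 0.0241), and it is a close relative of Clec4a1, so that their probes may not tell them apart fully.

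Of 20 tested genes induced by interferons, 8 (40%) were called lower, against 5.12% of all genes, and 0 higher. Of the 8, Oas1a had a mean signal under 100 at 48 and 72 hours. The median of the 20 was -0.51, 19 differences were negative, and in 17 both late arrays were below both earlier ones, against 31.6% of all genes. The 12 that did not pass the test included Stat2 and Rsad2, with log2 differences of -0.20 and 0.10. Leaving out each array in turn, 0, 0, 11 and 4 were called lower, so that none was called without the 12 or without the 24 hour array. Bst2, a surface protein that tethers viruses to the cell, had a signal of 1956 and 1762 at 12 and 24 hours against 1132 and 521 at 48 and 72 hours (log2 difference -1.23 ± 0.29 SE, adjusted p = 0.0369). Psmb9, a subunit of the immunoproteasome, read 838 and 769 at 12 and 24 hours against 506 and 313 at 48 and 72 hours (log2 difference -0.95 ± 0.21 SE, adjusted p = 0.0306). Irf7, a transcription factor of the interferon response, read 861 and 804 at 12 and 24 hours against 554 and 366 at 48 and 72 hours (log2 difference -0.84 ± 0.19 SE, adjusted p = 0.0344). In each, 48 hours lay between the earlier arrays and 72 hours. Oas1a, Ifit2, Ifi27, Gbp2 and Ifitm3 were the other 5 called, with differences from -0.88 to -0.39. The microglial genes above moved with this group over the same arrays, and their part in it was not tested.

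Chemokines and cytokines moved in both directions. Of 27 tested, 8 (29.6%) were called higher and 5 (18.5%) lower, against 4.14% and 5.12% of all genes, and the median was 0.33. Clcf1 of the 8 and Ccl9 of the 5 had a mean signal under 100 in their dimmer group. With 1 array left out in that order, 1, 4, 12 and 6 were called higher and 1, 3, 6 and 5 lower. Of the 8, Ccl20, Cxcl3, Cxcl2 and Cxcl1 attract neutrophils or lymphocytes. Cxcl2 had a signal of 90.8 and 136 at 12 and 24 hours against 314 and 428 at 48 and 72 hours (log2 difference 1.48 ± 0.23 SE, adjusted p = 0.0117), after a peak of 401 at 6 hours. Cxcl1 read 971 and 895 at 12 and 24 hours against 1412 and 1753 at 48 and 72 hours (log2 difference 0.74 ± 0.14 SE, adjusted p = 0.0214). Ccl2, the main chemokine for monocytes, gave a bright signal and read 12527 and 11929.7 at 12 and 24 hours against 17705 and 17146 at 48 and 72 hours (log2 difference 0.51 ± 0.09 SE, adjusted p = 0.0205). Il1b, the cytokine interleukin-1 beta, read 146 and 130.1 at 12 and 24 hours against 365 and 339 at 48 and 72 hours (log2 difference 1.18 ± 0.17 SE, adjusted p = 0.0108), which at 48 and 72 hours was close to the 311 of 0 hours. Cxcl10, a chemokine induced by interferon, went against the interferon group at 155 and 199 at 12 and 24 hours against 305 and 629.8 at 48 and 72 hours (log2 difference 1.18 ± 0.29 SE, adjusted p = 0.0439). Clcf1, a cytokine of the ciliary neurotrophic factor family, was the last of the 8, at 56.5 and 52.1 at 12 and 24 hours against 119 and 174 at 48 and 72 hours (log2 difference 1.03, as a description).

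The 5 called lower were Ccl9, Il18, Ccl4, Cxcl12 and Cxcl14. Ccl9, a macrophage chemokine, had a signal of 271 and 311 at 12 and 24 hours against 81.5 and 79.6 at 48 and 72 hours (log2 difference -1.52, as a description), after 959, 1419 and 1673 at 0, 2 and 6 hours. Il18, a cytokine of macrophages, read 909.8 and 796 at 12 and 24 hours against 376 and 255 at 48 and 72 hours (log2 difference -1.37 ± 0.19 SE, adjusted p = 0.00926), and its binding protein Il18bp fell as given above. Ccl4 read 1351 and 1748 at 12 and 24 hours against 961 and 534 at 48 and 72 hours (log2 difference -1.06 ± 0.25 SE, adjusted p = 0.0363). All 3 were lowest at 72 hours. Cxcl12, which guides the migration of neural precursors, read 2441 and 2013 at 12 and 24 hours against 1259 and 1283 at 48 and 72 hours (log2 difference -0.79 ± 0.13 SE, adjusted p = 0.0138), and Cxcl14 was the last of the 5 (log2 difference -0.55 ± 0.13 SE, adjusted p = 0.0379).

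Of 27 tested genes of NF-kB feedback and of the acute phase, 7 (25.9%) were called higher, against 4.14% of all genes, and 0 lower, the median was 0.23 and 20 differences were positive, while with each array left out in turn 2, 4, 8 and 5 were called higher. Nfkbia, the inhibitor that NF-kB itself induces, had a signal of 1276 and 1274 at 12 and 24 hours against 2269 and 2412 at 48 and 72 hours (log2 difference 0.86 ± 0.11 SE, adjusted p = 0.00707). Nfkbiz, an inducible nuclear partner of NF-kB, read 594 and 883 at 12 and 24 hours against 1624 and 1315 at 48 and 72 hours (log2 difference 0.98 ± 0.19 SE, adjusted p = 0.0227). Ptgs1, the other cyclooxygenase, read 3030.2 and 2978 at 12 and 24 hours against 4009.7 and 4876 at 48 and 72 hours (log2 difference 0.55 ± 0.12 SE, adjusted p = 0.0313), a smaller difference than that of Ptgs2. In these genes the late arrays were the highest of the series. Icam1, an adhesion molecule for leukocytes (log2 difference 0.43 ± 0.11 SE, adjusted p = 0.0459), and Birc3, an inhibitor of apoptosis (log2 difference 0.80 ± 0.17 SE, adjusted p = 0.0281), completed the 7 with Ptgs2 and Serpina3n. The other acute phase genes tested did not pass, with log2 differences of 0.53 for Lcn2, 0.13 for C3 and -0.09 for Cp, and Socs3, an inhibitor of cytokine signals, was at -0.47.

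Ligands and feedback genes of the MAPK cascade included 5 called higher (21.7%) and 2 lower (8.7%) of 23 tested, against 4.14% and 5.12% of all genes. Of the 5, Ereg and Fgf1 had a mean signal under 100 at 12 and 24 hours, so they passed the filter through the late arrays. The list's median was 0.23 and became -0.03 without the 72 hour array. With each array left out in turn, 0, 0, 5 and 2 were called higher and 0, 1, 2 and 1 lower. Areg, amphiregulin, a ligand of the same receptor as Ereg, had a signal of 322 and 329 at 12 and 24 hours against 550.2 and 1035 at 48 and 72 hours (log2 difference 1.14 ± 0.25 SE, adjusted p = 0.0329), and its 1013 at 6 hours was close to its level at 72 hours. Fgf1, a fibroblast growth factor, was dim at 85 and 67.2 at 12 and 24 hours against 152 and 218 at 48 and 72 hours (log2 difference 0.99, as a description). Spry4, a feedback inhibitor of receptor kinases, read 589 and 567 at 12 and 24 hours against 941 and 1551 at 48 and 72 hours (log2 difference 1.02 ± 0.21 SE, adjusted p = 0.0265). The 2 phosphatases of MAPK that were called moved apart. Dusp1, an immediate early phosphatase of p38 and JNK, read 1376 and 1069 at 12 and 24 hours against 1884 and 3029 at 48 and 72 hours (log2 difference 0.96 ± 0.21 SE, adjusted p = 0.0338), whereas Dusp6, a phosphatase of ERK, read 2069.6 and 2060.3 at 12 and 24 hours against 1057 and 1059 at 48 and 72 hours (log2 difference -0.94 ± 0.11 SE, adjusted p = 0.00623), with both of its other probe sets called lower. Pdgfa, a platelet-derived growth factor chain, was also called lower (log2 difference -0.58 ± 0.12 SE, adjusted p = 0.0286).

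Immediate early transcription factors also moved in both directions, with 5 higher (20%) and 2 lower (8%) of 25 tested, against 4.14% and 5.12% of all genes. The list's median was 0.09. Leaving out each array in turn, 0, 2, 7 and 4 were called higher and 1, 1, 4 and 3 lower. Nr4a2, an orphan nuclear receptor, had a signal of 303 and 378 at 12 and 24 hours against 758 and 917 at 48 and 72 hours (log2 difference 1.22 ± 0.17 SE, adjusted p = 0.00849). Its relative Nr4a1 read 274 and 298 at 12 and 24 hours against 466 and 816 at 48 and 72 hours (log2 difference 1.03 ± 0.24 SE, adjusted p = 0.0359), below its 1434 at 6 hours. Fosl2, a subunit of AP-1, read 280.2 and 150.2 at 12 and 24 hours against 700.4 and 419.7 at 48 and 72 hours (log2 difference 1.27 ± 0.30 SE, adjusted p = 0.0369), with 48 hours above 72 hours. Klf4 and Ier3 were called higher with log2 differences of 0.70 and 0.51. Atf3, a stress-induced factor, was called lower at 5556 and 5823 at 12 and 24 hours against 3164 and 3105 at 48 and 72 hours (log2 difference -0.85 ± 0.10 SE, adjusted p = 0.00623), its lowest signals of the series. Egr2, which also marks Schwann cells, was called lower at 2657 and 2649 at 12 and 24 hours against 1651 and 831 at 48 and 72 hours (log2 difference -1.16 ± 0.26 SE, adjusted p = 0.0335).

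Of 20 tested genes of the heat shock response, 7 (35%) were called higher, against 4.14% of all genes, and 0 lower, the median was 0.41, 16 differences were positive, and with each array left out in turn 2, 3, 10 and 3 were called higher. Hspa4l, a chaperone of the large heat shock protein family, had a signal of 679 and 370.2 at 12 and 24 hours against 1544 and 2384 at 48 and 72 hours (log2 difference 1.87 ± 0.28 SE, adjusted p = 0.0108). Cryab, alpha-B-crystallin, a small heat shock protein, read 738 and 578 at 12 and 24 hours against 1654 and 3248 at 48 and 72 hours (log2 difference 1.78 ± 0.27 SE, adjusted p = 0.0115). Hspa1a, the main stress-inducible chaperone of the cytosol, read 522 and 709 at 12 and 24 hours against 1263 and 1663 at 48 and 72 hours (log2 difference 1.21 ± 0.18 SE, adjusted p = 0.0114), and its probes may also read the near-identical Hspa1b. All 3 were highest at 72 hours. Hspa2, Hspb8, Hspb6 and Hspa4 were the other 4, with log2 differences from 0.58 to 1.06. The 13 that did not pass the test included Hsp90ab1, Dnajb1, Hspb1 and Stip1, at -0.12, -0.10, -0.21 and 0.07.

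Of 30 tested genes of endoplasmic reticulum stress, 3 (10%) were called higher and 2 (6.67%) lower, against 4.14% and 5.12% of all genes. The median was -0.13. Nupr1, a stress-induced nuclear protein, had a signal of 1905 and 1508 at 12 and 24 hours against 5057 and 6890.3 at 48 and 72 hours (log2 difference 1.78 ± 0.17 SE, adjusted p = 0.00307). Ddit4, an inhibitor of the growth kinase mTOR, read 932 and 1105 at 12 and 24 hours against 1677 and 1869 at 48 and 72 hours (log2 difference 0.78 ± 0.13 SE, adjusted p = 0.0154). Hsp90b1, the chaperone of the reticulum, was called lower with Atf3, at 7241 and 8034 at 12 and 24 hours against 5883 and 5384 at 48 and 72 hours (log2 difference -0.44 ± 0.11 SE, adjusted p = 0.0419). Of 24 antioxidant targets of NRF2, 1 (4.17%) was called higher, about the share of all genes, with a median of -0.02. It was Me1, the malic enzyme that makes NADPH, at 1413 and 1455 at 12 and 24 hours against 2712 and 3449 at 48 and 72 hours (log2 difference 1.08 ± 0.13 SE, adjusted p = 0.00686).

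Genes of apoptosis were called at about the rate of all genes. Of 32 tested, 2 (6.25%) were called higher and 1 (3.12%) lower, the median was -0.24 and 27 differences were negative. Dapk1, a kinase that promotes cell death, had a signal of 1338 and 1551 at 12 and 24 hours against 2481 and 2705 at 48 and 72 hours (log2 difference 0.83 ± 0.12 SE, adjusted p = 0.0105), and its other probe set was called higher too. Bok, a member of the BCL2 family that promotes death, was called lower at 341 and 362 at 12 and 24 hours against 227 and 157 at 48 and 72 hours (log2 difference -0.80 ± 0.20 SE, adjusted p = 0.0438). Casp9, the caspase of the mitochondrial pathway, read 369 and 358 at 12 and 24 hours against 295 and 263 at 48 and 72 hours and did not pass the test (log2 difference -0.35 ± 0.16 SE, adjusted p = 0.191). The p53 target list had 1 call of 16 (6.25%), Zmat3 (log2 difference 0.52 ± 0.13 SE, adjusted p = 0.041), and a median of 0.18. Of other genes that the study lists from these same arrays, which are no independent evidence of a direction, Gadd45a, a DNA damage gene, read 2094 and 2031 at 12 and 24 hours against 2396 and 4239.6 at 48 and 72 hours (log2 difference 0.62 ± 0.22 SE, adjusted p = 0.114). Ddit3, a factor of the stress response that promotes death, read 969.9 and 1075 at 12 and 24 hours against 1209 and 1588 at 48 and 72 hours (log2 difference 0.43 ± 0.15 SE, adjusted p = 0.109), and Hmox1, heme oxygenase, read 12227 and 10442 at 12 and 24 hours against 8973 and 14765 at 48 and 72 hours (log2 difference 0.03 ± 0.21 SE, adjusted p = 0.947). None of the 3 passed the test, which set the late arrays against 12 and 24 hours. The paper also measured Gadd45a and Ddit3 by real-time RT-PCR. It reported significant increases of both at 48 to 72 hours against 0 hours, a different baseline from the one used here. Inhbb, an inhibin chain (log2 difference 0.50 ± 0.42 SE, adjusted p = 0.471), and Vnn1, a pantetheinase (log2 difference 0.92 ± 0.38 SE, adjusted p = 0.154), stood apart at 72 hours alone, at 521 and 599 against 155 and 209 at 48 hours.

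**Figure D3:**
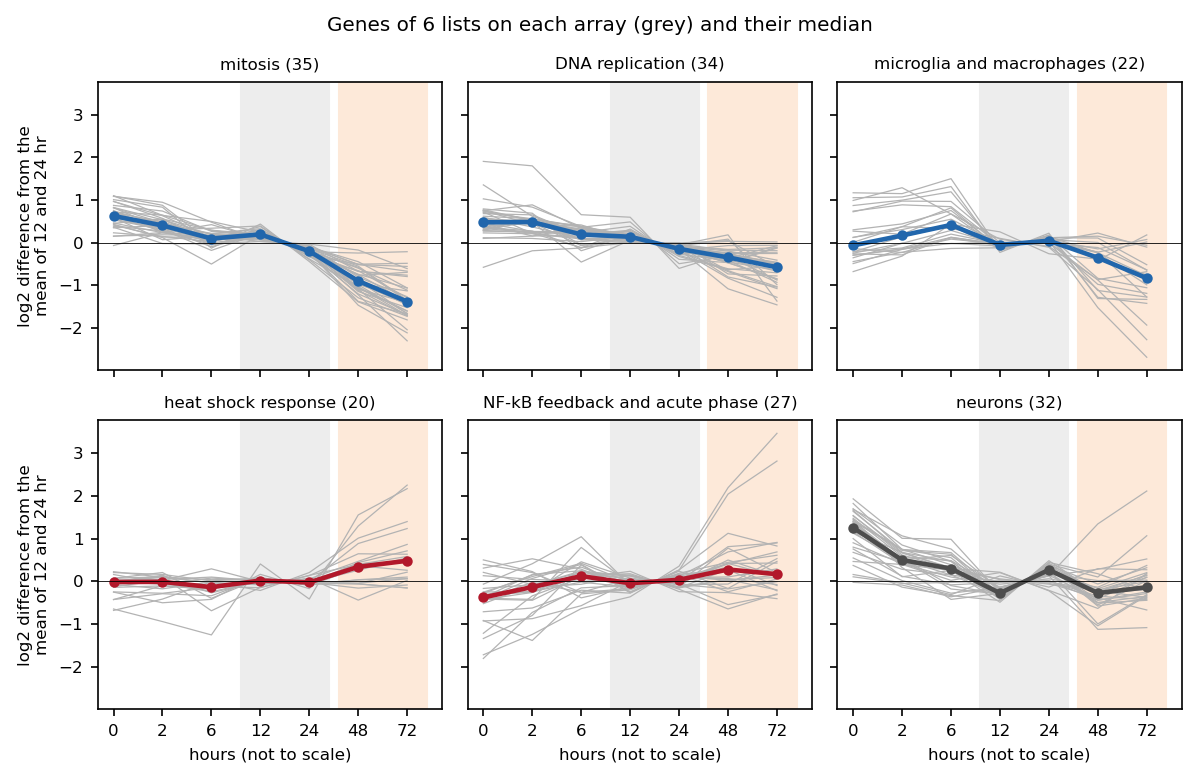
Each panel shows 1 gene list by hours of stress (equally spaced, not to scale); grey lines are single genes, the thick line their median, and the vertical axis the difference of log2(signal + 32) from the mean of the 12 and 24 hour arrays, with grey and orange bands marking the groups compared. The mitosis median ends at -1.38 and that of microglia and macrophages at -0.83, the heat shock median ends at 0.49, and the neuron median is highest at 0 hours, at 1.26.

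Neuron markers too were called at about the rate of all genes. Of 32 tested, 1 was called higher and 1 lower (3.12% each), and the median was -0.21 but 0.07 without the 24 hour array, while at 0 hours it lay 1.26 above the 12 and 24 hour mean on the log2 scale. The summed signal of the 39 markers on the array was 16573, 22019, 15811 and 20416 at 12, 24, 48 and 72 hours, so that the groups overlapped. Sncg, gamma-synuclein, a protein of sensory and motor neurons, rose, at 329 and 402 at 12 and 24 hours against 976 and 1688 at 48 and 72 hours (log2 difference 1.73 ± 0.24 SE, adjusted p = 0.00849). Gap43, the growth cone protein, fell, at 1476 and 1786 at 12 and 24 hours against 729 and 751 at 48 and 72 hours (log2 difference -1.10 ± 0.13 SE, adjusted p = 0.00623). Rbfox3, which encodes the neuronal nuclear antigen NeuN, read 114 and 209 at 12 and 24 hours against 129.8 and 113 at 48 and 72 hours (log2 difference -0.29 ± 0.26 SE, adjusted p = 0.508) after 379 at 0 hours. In the synaptic list Vamp1 and Sv2b, a synaptic vesicle protein (log2 difference 0.52 ± 0.12 SE, adjusted p = 0.039), were called higher of 20 tested, and the median was 0.06. Among 11 ion channel genes 2 (18.2%) were called higher and 1 (9.09%) lower. The calcium channel subunits Cacna1c and Cacnb3 were called higher (log2 differences 0.65 and 0.52) and the potassium channel Kcnd3 lower (-0.84), each with an adjusted p of at least 0.042. Ptn, pleiotrophin, a growth factor for neurites, was the single call among 13 neurotrophic genes, at 4774 and 4152 at 12 and 24 hours against 2948 and 2332 at 48 and 72 hours (log2 difference -0.76 ± 0.14 SE, adjusted p = 0.0194).

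Several glial markers fell and others did not. Of 19 tested astrocyte markers 4 (21.1%) were called lower, against 5.12% of all genes, and 0 higher, with a median of -0.33, and with each array left out in turn 0, 3, 5 and 2 were called lower. Ntsr2, a neurotensin receptor of astrocytes, had a signal of 212 and 228 at 12 and 24 hours against 81.5 and 63.1 at 48 and 72 hours (log2 difference -1.28, as a description). It is 1 of the 4 called, and its mean signal was under 100 in the late group. Mlc1, a membrane protein of astrocyte endfeet, read 1327 and 1195 at 12 and 24 hours against 725 and 498 at 48 and 72 hours (log2 difference -1.03 ± 0.18 SE, adjusted p = 0.0168). Gfap and Vim were called lower too, with log2 differences of -0.60 and -0.38. The 15 astrocyte markers that did not pass the test included Aqp4, Slc1a3, Gja1 and Tnc, with log2 differences of 0.23, 0.07, -0.03 and 0.74. Of the 19 differences, 13 were negative and 6 positive. Pmp22, a myelin protein of Schwann cells that other cell types also express, read 4358 and 4411 at 12 and 24 hours against 2069 and 1750.3 at 48 and 72 hours (log2 difference -1.19 ± 0.12 SE, adjusted p = 0.0036). With Egr2 it made the 2 calls (22.2%) among 9 markers of Schwann cells and neural crest. None of 8 oligodendrocyte markers (median 0.12) and none of 9 progenitor markers (median -0.06) passed the test.

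Fibroblast markers and matrix genes moved in both directions. Of 24 fibroblast and meningeal markers 2 (8.33%) were called higher and 4 (16.7%) lower, against 4.14% and 5.12% of all genes (median -0.22). Slc47a1, 1 of the 4, had a mean signal under 100 at 48 and 72 hours. Twist2, a transcription factor of mesenchyme, had a signal of 224 and 258 at 12 and 24 hours against 503 and 791 at 48 and 72 hours (log2 difference 1.28 ± 0.21 SE, adjusted p = 0.0152), and Aspn, asporin, a small matrix proteoglycan, read 499 and 699 at 12 and 24 hours against 1257 and 1637 at 48 and 72 hours (log2 difference 1.24 ± 0.19 SE, adjusted p = 0.0114). Slc47a1, an organic cation exporter, read 189 and 154 at 12 and 24 hours against 63.7 and 13.6 at 48 and 72 hours (log2 difference -1.62, as a description), and Fbln1, the matrix glycoprotein fibulin-1, read 2253 and 1534 at 12 and 24 hours against 960.0 and 797 at 48 and 72 hours (log2 difference -1.06 ± 0.19 SE, adjusted p = 0.0174). Of 44 matrix proteins 6 (13.6%) were called lower and 0 higher, with a median of -0.05, and with each array left out in turn 0, 0, 9 and 2 were called lower. Col1a1 and Col1a2, the chains of type I collagen, were among the 6, with log2 differences of -0.39 ± 0.10 SE and -0.48 ± 0.10 SE, as was Bcan, the brain proteoglycan brevican (log2 difference -0.79 ± 0.19 SE, adjusted p = 0.0394).

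Among 29 matrix proteases and inhibitors 3 (10.3%) were called higher and 4 (13.8%) lower, against 4.14% and 5.12% of all genes. Plau, the urokinase plasminogen activator, had a signal of 4835 and 5298 at 12 and 24 hours against 2759 and 1728 at 48 and 72 hours (log2 difference -1.20 ± 0.19 SE, adjusted p = 0.0135), and its other probe set was called lower too. Timp3, an inhibitor of metalloproteinases bound to matrix, read 2965 and 2504 at 12 and 24 hours against 4355 and 5588 at 48 and 72 hours (log2 difference 0.85 ± 0.14 SE, adjusted p = 0.0159). Prss35, a serine protease-like protein, read 437 and 325 at 12 and 24 hours against 812 and 1599 at 48 and 72 hours (log2 difference 1.52 ± 0.28 SE, adjusted p = 0.0202). Of 24 integrin and adhesion genes 3 (12.5%) were higher and 1 (4.17%) lower. Itgb3, an integrin beta chain (log2 difference 0.62 ± 0.12 SE, adjusted p = 0.025), and Zyx, zyxin of focal adhesions (log2 difference 0.49 ± 0.11 SE, adjusted p = 0.0313), rose. Itga6, the laminin-binding integrin alpha chain, fell at 1355 and 1233 at 12 and 24 hours against 669 and 641 at 48 and 72 hours (log2 difference -0.95 ± 0.12 SE, adjusted p = 0.0076). Of 23 YAP and SRF targets, which respond to mechanical load, 3 (13%) were higher, among them Tead1 (0.79 ± 0.15 SE) and Fhl2 (0.75 ± 0.15 SE) on the log2 scale. The receptor kinase Axl (-0.54 ± 0.10 SE) was the 1 called lower (4.35%), and the median was 0.16. The share called lower in both lists was below the 5.12% of all genes.

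Signalling of the TGF-beta family and of retinoic acid also held calls both ways. Of 31 BMP and TGF-beta genes 4 (12.9%) were higher and 1 (3.23%) lower, against 4.14% and 5.12% of all genes. The median was 0.21. Id1, a target of bone morphogenetic proteins that blocks differentiation factors, had a signal of 1014 and 952 at 12 and 24 hours against 1604 and 3006 at 48 and 72 hours (log2 difference 1.14 ± 0.24 SE, adjusted p = 0.0301). Fst, follistatin, which binds activin, read 652 and 512 at 12 and 24 hours against 1586 and 1035 at 48 and 72 hours (log2 difference 1.11 ± 0.21 SE, adjusted p = 0.0205), and Tgfbr1, the type I receptor of TGF-beta, fell at 5769.8 and 5645 at 12 and 24 hours against 3421 and 2708 at 48 and 72 hours (log2 difference -0.90 ± 0.13 SE, adjusted p = 0.00959). In the retinoic acid pathway Rarb, a receptor that retinoic acid itself induces, rose at 918 and 1165 at 12 and 24 hours against 2525 and 2744 at 48 and 72 hours (log2 difference 1.32 ± 0.14 SE, adjusted p = 0.00463), with both late arrays the highest of the series. Cyp26b1, which degrades retinoic acid, rose at 911 and 740.1 at 12 and 24 hours against 1574 and 2354 at 48 and 72 hours (log2 difference 1.20 ± 0.19 SE, adjusted p = 0.0135), while Aldh1a2, which makes it, fell at 1416 and 874 at 12 and 24 hours against 517 and 416 at 48 and 72 hours (log2 difference -1.21 ± 0.22 SE, adjusted p = 0.0193).

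Vascular and muscle markers were few. Of 7 endothelial markers tested, 1 (14.3%) was called higher and 2 (28.6%) lower, against 4.14% and 5.12% of all genes. Eng, endoglin, was called higher (log2 difference 0.75 ± 0.17 SE, adjusted p = 0.0348) and Tie1 and Ramp2 lower (-0.99 and -0.81 on the log2 scale), and the defining markers Pecam1, Kdr, Cldn5 and Vwf had mean signals under 100. Of 8 pericyte and smooth muscle markers 1 (12.5%) was called higher, the myosin light chain Myl9 (log2 difference 0.49 ± 0.11 SE, adjusted p = 0.0371), and the summed signal of the 12 on the array was 7238, 7649, 9020 and 9085. None of 13 skeletal muscle markers passed the test (median -0.04).

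In none of the lists of metabolism below did the share called lower exceed that of all genes. Of 27 genes of glycolysis and hypoxia 4 (14.8%) were higher and 1 (3.7%) lower, against 4.14% and 5.12% of all genes. The median was -0.02. Vegfa, the endothelial growth factor induced by low oxygen, had a signal of 775 and 883 at 12 and 24 hours against 1498 and 1725 at 48 and 72 hours (log2 difference 0.93 ± 0.13 SE, adjusted p = 0.00959), Angptl4, an inhibitor of lipoprotein lipase, read 2430.3 and 3621 at 12 and 24 hours against 4983 and 6568 at 48 and 72 hours (log2 difference 0.94 ± 0.20 SE, adjusted p = 0.0272), and Ndrg1, another gene induced by low oxygen, fell at 7048 and 7459 at 12 and 24 hours against 3339 and 3428 at 48 and 72 hours (log2 difference -1.09 ± 0.10 SE, adjusted p = 0.00278). Of 30 respiratory chain genes 1 (3.33%) was called, Ndufv2 (log2 difference -0.67 ± 0.11 SE, adjusted p = 0.0127), while 27 differences were negative and the median was -0.19. Of 25 genes of the list of glutamine and amino acids, 2 (8%) were called higher and 1 (4%) lower. Slc12a2, the sodium, potassium and chloride cotransporter, is an ion carrier that this list also holds. It rose at 1061 and 964 at 12 and 24 hours against 1729.7 and 3353 at 48 and 72 hours (log2 difference 1.23 ± 0.26 SE, adjusted p = 0.0275). Slc38a2, a glutamine transporter, rose too (log2 difference 0.80 ± 0.12 SE, adjusted p = 0.0105), whereas Slc1a5, another glutamine transporter, fell at 824 and 652 at 12 and 24 hours against 269 and 313 at 48 and 72 hours (log2 difference -1.25 ± 0.17 SE, adjusted p = 0.00823).

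Of 16 junction genes 1 (6.25%) was called higher and 2 (12.5%) lower, against 4.14% and 5.12% of all genes. Jam3, a junctional adhesion molecule, rose (log2 difference 0.93 ± 0.17 SE, adjusted p = 0.0191), and Gjb2 and Ocln, occludin of tight junctions (log2 difference -1.09 ± 0.21 SE, adjusted p = 0.022), fell. Of 29 lysosome and autophagy genes 3 (10.3%) were lower, among them the cathepsin Ctsz (log2 difference -0.54 ± 0.13 SE, adjusted p = 0.0372) and Gusb, a lysosomal enzyme that is also used as a loading control (log2 difference -0.58 ± 0.15 SE, adjusted p = 0.048). Where a named gene had other probe sets, these moved the same way but were not called for Slco2b1, Bok, Tgfbr1, Cyp26b1, Kcnd3, Ocln and Tead1, and 1 of 3 was called for Timp3 and 1 of 2 for Itga6. None of 20 cholesterol synthesis genes (median -0.06) and none of 22 ribosomal protein genes (median -0.06) passed the test, and Gusb was the single call among 9 reference genes (median -0.12). Over the 30 lists with under 5 calls in either direction, 78 calls stood as given, a gene in 2 lists counting in each, and 8, 43, 160 and 55 stood with the 12, 24, 48 and 72 hour array left out.

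**Figure D4:**
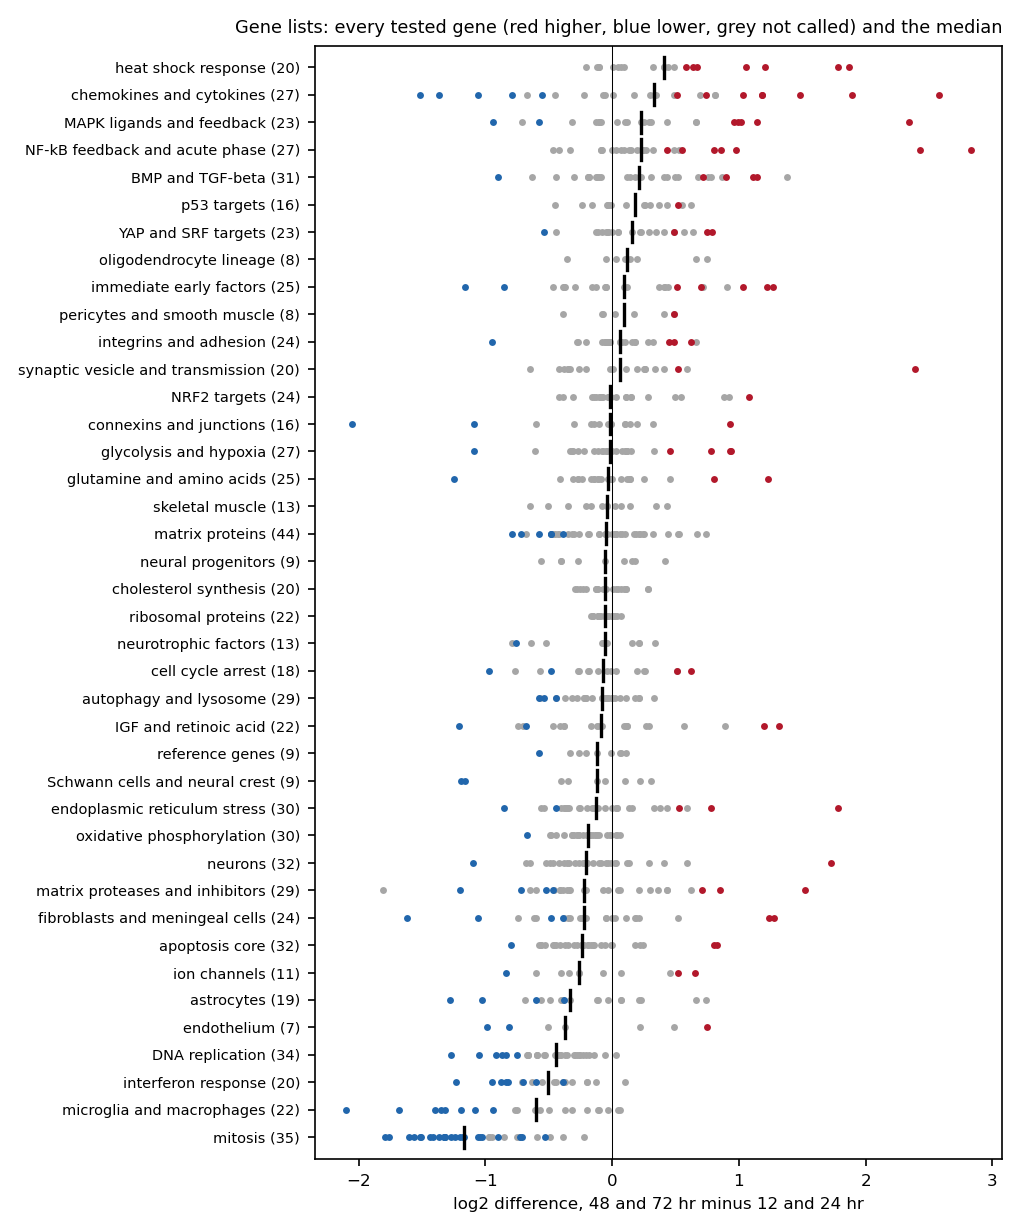
Each row is 1 gene list with the number of its genes tested, each point the log2 difference of 1 gene (48 and 72 hours minus 12 and 24 hours), red where called higher, blue where called lower and grey where not called; the black bar is the list's median. Mitosis, at a median of -1.17, stands at the bottom, followed by microglia and macrophages at -0.60 and the interferon response at -0.51, and heat shock stands at the top at 0.41.

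For the step from 2 and 6 hours to 12 and 24 hours, fitted on 17626 probe sets of the 6 arrays, 50 probe sets (0.284%) were called higher and 10 (0.0567%) lower, and 2151 had an unadjusted p under 0.05. With the same 6 arrays, 771 were called higher and 817 lower in the later step, on the 17683 probe sets of the main comparison. The 2 steps share the 12 and 24 hour arrays, so that their values are set side by side here without a test of likeness. Ccl9 had a log2 difference of -2.29 in the earlier step and -1.52 in the later one, and Slco2b1 of -0.79 and -2.43. Ccl20 had 0.19 and then 2.58, Prl8a7 -0.18 and then 2.90, Ttk -0.51 and then -1.79, and Cd5l 0.11 and then -2.99. A direct test of whether the later step differed from the earlier one called 0 probe sets (limma, smallest adjusted p = 0.251), while 1086 had an unadjusted p under 0.05. Without the 48 hour array that test called 17 higher and 23 lower. No gene was thus shown to change differently in the later step with all 6 arrays.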

How the data were processed

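Total RNA of cultured rat spinal cord cells, pooled from 5 animals per time, was hybridised to 1 Affymetrix rat array per time by the authors. They deposited signal intensities on a linear scale, 1 per probe set, which the labels credit to GCOS and MAS5 and which were scaled globally, so that array totals carry no information; the number of arrays limits the precision. Gene symbols came from the platform annotation: 20826 of 31042 probe sets had 1 symbol, 436 several and 9780 none, and only probe sets with 1 symbol were named; 20758 matched RefSeq by gene ID, and 0 symbols changed.

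From the deposited intensities, log2(signal + 32) was computed, so fold changes of dim probe sets are understated. The arrays at 48 and 72 hours were compared with those at 12 and 24 hours with limma 3.58.1 (R 4.3.3; lmFit, eBayes with an intensity trend, two-sided, 2 residual degrees of freedom, prior 6.44), with Benjamini-Hochberg adjustment over 17683 probe sets of mean signal of at least 100. The step comparison used 6 arrays (3 residual degrees of freedom, prior 7.45). The script was tested on simulated data. Nothing in the labels makes the arrays of a group replicate cultures, so p-values measure the spread between neighbouring times.

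A gene was represented by its probe set of highest mean signal. The 40 gene lists (10 of cell types) and the rule for named genes, which took the 12 largest differences in each direction, up to 2 called genes per direction in each list and genes the study lists, were chosen with earlier results of these data known; Actb had no probe set of a single symbol, and other list genes named in the text were chosen after their values were seen. Alternatives changed the pseudocount, the filter, the scaling, the trend, the arrays fitted and the size rule. Promoters came from RefSeq (GRCr8). Python 3.11.15, numpy 2.4.6, pandas 2.3.3 and matplotlib 3.10.9 were used.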

Additional observations from a re-analysis of the deposited data

How the results depend on the processing

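The counts of 838 probe sets higher and 760 lower stayed within 1.5 times under pseudocounts of 16 and 64, a mean signal of at least 200, scaling to the same median, quantile normalization and limma on 6 arrays, where they lay between 688 and 854 higher and between 653 and 817 lower. They moved to 35 and 34 with no filter on the mean signal and to 437 and 340 without an intensity trend. With 1 array left out they lay between 53 and 1472 higher and between 48 and 1496 lower, lowest without the 12 hour array and highest without the 48 hour array; the cause was not tested. The counts by size alone, 61 and 54, moved to 236 and 198 with a ratio of at least 1.5 and to 16 and 6 with a ratio of at least 3, and with 1 array left out lay between 83 and 222 higher and between 65 and 240 lower, where fewer pairs have to pass. The step comparison called 0 in each direction except without the 48 hour array, so that leaving out 1 array gave 0 to 17 higher and 0 to 23 lower. Of 101 named genes called, none reversed its sign, and 22, 57, 98 and 75 stayed called without the 12, 24, 48 and 72 hour array, 55 without the trend and 14 without the filter. Of the genes not called, leaving out 1 array turned the sign of Rbfox3 (-0.66 to 0.07), Hmox1 (-0.33 to 0.38) and Inhbb (-0.28 to 1.29). List medians near 0 turned too: with quantile normalization those of NRF2 targets, glycolysis and hypoxia, and ribosomal proteins became 0.08, 0.03 and 0.02. Leaving out 1 array turned the sign of 3 to 5 of the 40 list medians, among them skeletal muscle (-0.04 to 0.38 without 72 hours), neural progenitors (-0.06 to 0.14 without 12 hours), Schwann cells and neural crest (-0.12 to 0.08 without 48 hours), neurons and MAPK ligands. No paired analysis was possible because the labels give no replicate numbers and each time has 1 array.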

Other observations

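Probe sets that name no single gene were called higher more often than those that do. Of 3793 such probe sets tested, 277 (7.3%) were called higher and 119 (3.14%) lower, whereas of 13890 probe sets with 1 symbol 561 (4.04%) were called higher and 641 (4.61%) lower. The ratio of the 3′ to the 5′ beta-actin control rose over the same arrays, from 1.95 at 12 hours to 2.62 at 72 hours, and its part in this difference was not tested.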
